A study of Mus musculus with 20 samples.

Results

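The Usp17l deubiquitinase family was followed through mouse germ cells in which Chd4, the gene of the ATPase of the NuRD chromatin remodelling complex, had been targeted with a Cre transgene. The members were the genes whose symbols are Usp17la, Usp17lb, Usp17lc, Usp17ld and Usp17le, which were 5 of the 53722 genes listed for oocytes and 5 of the 55291 listed for spermatogonia. They were described in all 10 groups of the study, which held 2 libraries each. In growing oocytes at postnatal day 10 (P10), both Chd4 knockout libraries held transcripts of every member, and the control libraries held a single read for all of them together. In P3 spermatogonia Usp17lb, Usp17lc and Usp17le were also higher in both knockout libraries than in both controls. No difference there passed the test, for these or for any other gene.

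Usp17l genes encode cysteine proteases that remove ubiquitin, a small protein tag, from other proteins, and they are the mouse relatives of human USP17. The first of them were found as immediate early genes of blood cell lines treated with cytokines, and were named DUB for deubiquitinating enzyme. In the embryo, Usp17l transcripts are known from the two-cell stage, when the zygotic genome is first transcribed, together with genes such as the Zscan4 family. The proteins act on targets that include the Ras-processing protease Rce1 and the cell cycle phosphatase Cdc25a.

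Non-growing oocytes (NGO) of P1 and P5 ovaries and undifferentiated spermatogonia of P3 testes were compared between knockouts with the genotype Chd4 f/-; Ddx4-Cre Tg/+ (DcKO) and controls with Chd4 f/+; Ddx4-Cre Tg/+ (Dctrl). Both groups thus carried Cre, driven by the germ cell gene Ddx4, and the floxed allele of the controls was open to it too, so these controls are heterozygous. NGO and growing oocytes (GO) of P10 ovaries were compared between Chd4 f/f; Gdf9-iCre Tg/+ (GcKO), in which Cre is driven by the oocyte gene Gdf9, and Chd4 f/f without Cre (Gctrl). Cre itself was thus a second difference between the P10 groups. All mice had a mixed background of C57BL/6, 129S1/Sv and FVB/NJ. The labels did not say that the 2 libraries of a group came from separate animals, so each p-value rests on a spread between libraries that may be technical.

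The level of a gene was given as TPM, a share of all transcripts scaled for gene length and library size. Recovered library sizes were about 15330000 to 27010000 reads in oocytes and 18910000 to 30070000 in spermatogonia. Chd4 itself was lower in both knockout libraries than in both controls in each of the 5 comparisons. In P10 oocytes, where its level was already low in the controls, it was lower by little in TPM. In GO it was 1.559 and 2.956 TPM in the controls and 0.6313 and 1.538 TPM in the knockouts, and in P3 spermatogonia it was 248.6 and 286.4 TPM against 40.23 and 51.72 TPM. The summed level of 8 oocyte markers was 5765 to 6076 TPM in GO controls and 9377 to 10250 TPM in GO knockouts, with none of them at 0. These markers did not move alike. Bmp15 alone was lower in both knockouts, at 132.1 and 98.16 TPM against 598.8 and 391.4 TPM in the controls. Sohlh1, which was higher in P1 and P5 NGO, was at 22.53 and 45.22 TPM in GO knockouts and 1.123 and 0.9351 TPM in controls. The part of such differences in the Usp17l levels was not tested.

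All 5 members lie on chromosome 7 of GRCm38, within 1612.9 kb, and are annotated as protein coding. Usp17la (ENSMUSG00000054568.7, also known as Dub1) spans chr7:104857009-104862667 on the plus strand with 3 exons and 1578 coding bases. Usp17lb (ENSMUSG00000062369.2, Dub1a) spans chr7:104840257-104842603 on the minus strand with 2 exons and 1404 coding bases. Usp17lc (ENSMUSG00000058976.4, Dub2) spans chr7:103415072-103419880 on the plus strand with 2 exons and 1635 coding bases. Usp17ld (ENSMUSG00000057321.2, Dub2a) spans chr7:103249737-103252505 on the minus strand, also with 2 exons and 1635 coding bases. Usp17le (ENSMUSG00000043073.10, Dub3) spans chr7:104768049-104777470 on the minus strand with 4 exons and 1626 coding bases. The 5 genes thus form a proximal pair, Usp17ld and Usp17lc, and a distal group of Usp17le, Usp17lb and Usp17la.

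The copies are alike enough for reads to be ambiguous. The coding sequences of Usp17lc and Usp17ld were 98.41% identical, with 26 mismatched bases, while the other pairs were 90.74% to 94.49% identical over aligned bases. Of all 150-base windows of the exons, 29.41% for Usp17lc and 36.07% for Usp17ld occurred unchanged in another Usp17l gene, against 2.23% for Usp17lb, 1.28% for Usp17la and 0.75% for Usp17le. How reads that match several genes were counted was not given in the sources used here, so the split between Usp17lc and Usp17ld is uncertain, and the other 3 members are better separated.

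RefSeq promoter sequences (GRCm38.p6) matched 4 of the 5 members, and they share a stretch that ends upstream of each RefSeq start. The RefSeq starts are not those of the gene spans above: the stretch of Usp17lc lies inside its GENCODE span and that of Usp17lb overlaps the first bases of its own. It is printed because these 4 genes moved together in growing oocytes and their starts are alike over this stretch. The sequences run 5′ to 3′ on the strand of the gene, at chr7:104856875-104856989 (plus) for Usp17la, chr7:104842595-104842709 (minus) for Usp17lb, chr7:103416513-103416627 (plus) for Usp17lc and chr7:103252596-103252710 (minus) for Usp17ld. Capitals mark the TATA-like run of 6 bases that starts at base 96.
Usp17la: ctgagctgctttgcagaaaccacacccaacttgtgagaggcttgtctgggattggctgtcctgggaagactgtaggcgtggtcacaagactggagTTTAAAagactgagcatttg
Usp17lb: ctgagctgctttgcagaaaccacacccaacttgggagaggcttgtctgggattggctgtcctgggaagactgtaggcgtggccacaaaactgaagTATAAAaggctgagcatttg
Usp17lc: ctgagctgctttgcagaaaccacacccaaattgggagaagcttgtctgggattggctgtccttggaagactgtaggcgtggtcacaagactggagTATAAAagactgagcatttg
Usp17ld: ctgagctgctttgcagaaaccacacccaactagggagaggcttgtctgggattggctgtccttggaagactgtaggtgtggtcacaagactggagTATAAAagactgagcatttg

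Any pair of these stretches was 93.9% to 96.5% identical, with 4 to 7 differing positions, the fewest between Usp17lc and Usp17ld. The first 29 bases are the same in all 4 and occurred in no other of 32851 RefSeq promoters. Usp17lb, Usp17lc and Usp17ld have TATAAA, which starts 31, 88 and 110 bases before the RefSeq start. Usp17la has TTTAAA at the same place in the stretch, 46 bases before its start. On either strand, TATAAA was found in 13.616% of all promoters over the whole length given and in 4.82% over the same window, without regard to overlap with other motifs. CCAAT occurred on the strand opposite to the gene in each of the 4 stretches, 2 times in Usp17lc and 1 time in the others. On either strand it occurred in 20.1% of all promoters over that fixed window. These matches describe letters in a window and not binding. Usp17le is not in the promoter table.

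**Figure D1:**
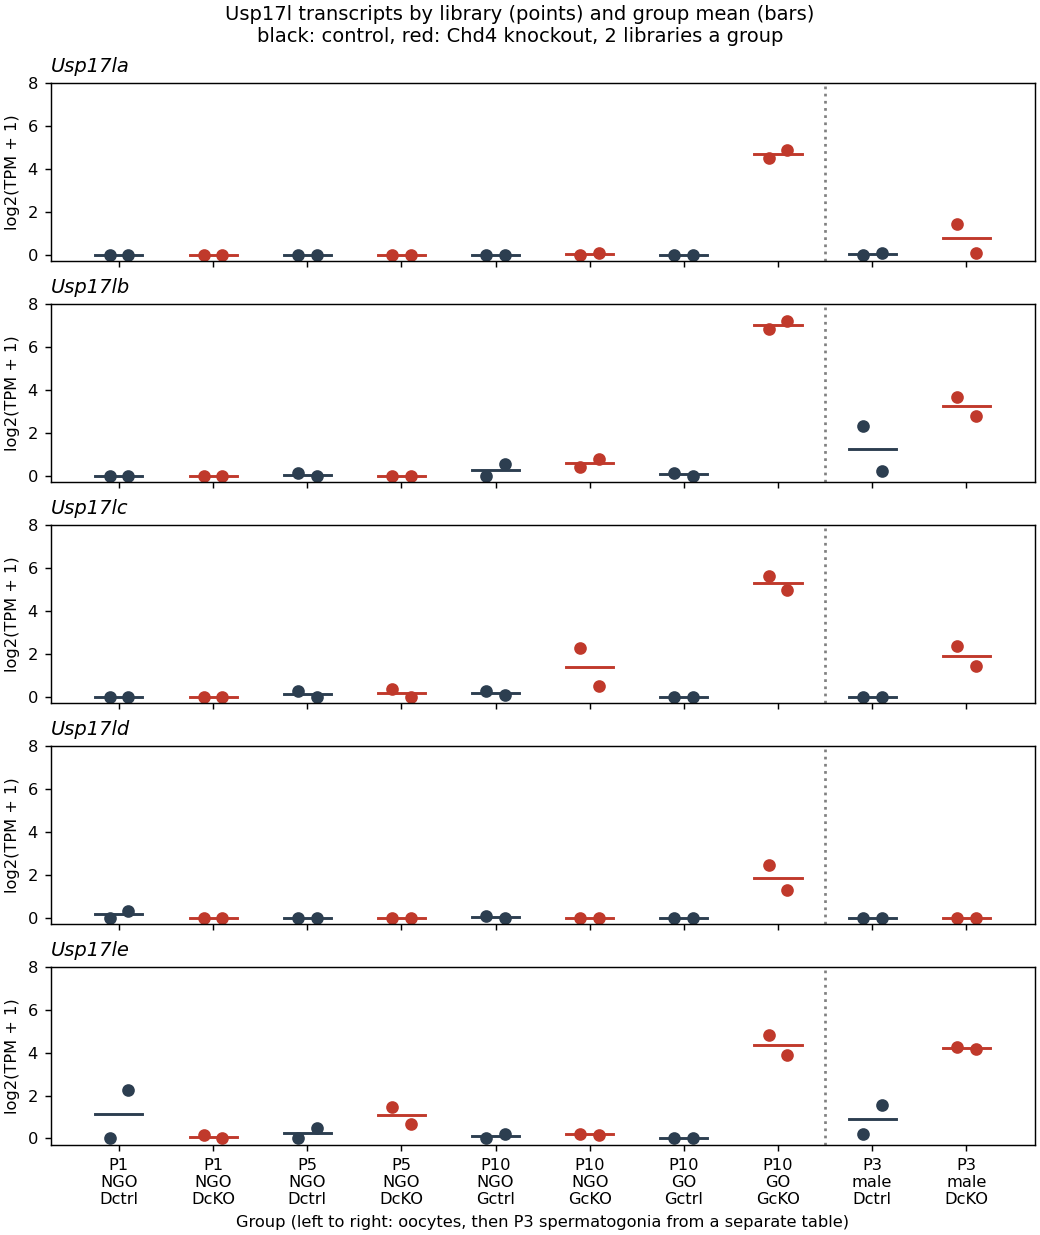
Level of each Usp17l member as log2(TPM + 1) on the y axis in each of the 10 groups on the x axis, with 1 point per library, bars for the group mean of 2 libraries, control in black and knockout in red. All 5 members stand above their controls in the 2 P10 GO GcKO libraries, and Usp17le is at a similar level in the 2 P3 spermatogonia knockout libraries.

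Outside the P10 growing oocyte knockouts the oocytes held few Usp17l reads. Summed over the members, the 14 other oocyte libraries held from 0 to 95 reads each. Usp17la was at 0 in 14 of all 20 libraries, Usp17lb in 9, Usp17lc in 10, Usp17ld in 16 and Usp17le in 6. A count of 0 allowed levels of up to 0.102 to 0.189 TPM for Usp17la and up to 0.136 to 0.278 TPM for Usp17ld, depending on the depth of the library and taking 3 reads as the limit. These limits and the intervals below cover counting error only.

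In growing oocytes every member was higher in both knockout libraries than in both controls. Usp17la, the gene of the enzyme first called Dub1, was at 0 in both controls and at 21.8 and 28.2 TPM in the knockouts, which is 435 and 486 reads. Usp17lb, also known as Dub1a, was at 0.0843 and 0 TPM in the controls, the former from 1 read, and at 114.7 and 147.2 TPM in the knockouts, from 1344 and 1490 reads. Usp17lb was thus the most abundant member, and the groups did not overlap for either gene. In bulk libraries more cells that express a gene and more RNA per cell cannot be told apart.

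The Dub2-like pair was uneven. Usp17lc was at 0 in both GO controls and at 48.5 and 30.7 TPM in the knockouts, from 893 and 488 reads. Usp17ld was also at 0 in both controls, and at 4.49 and 1.40 TPM in the knockouts, from 67 and 18 reads. Usp17ld was the lowest member in both knockout libraries, although the split of reads between it and Usp17lc is uncertain. Usp17le, the Dub3 gene, was at 0 in both controls and at 26.95 and 13.9 TPM in the knockouts, from 402 and 179 reads. All groups were separate, with replicate 1 higher for Usp17lc, Usp17ld and Usp17le and replicate 2 higher for Usp17la and Usp17lb.

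As group means, the GO knockouts held 130.9 ± 22.97 TPM of Usp17lb, 39.59 ± 12.6 of Usp17lc, 25.02 ± 4.522 of Usp17la, 20.42 ± 9.236 of Usp17le and 2.944 ± 2.189 of Usp17ld (SD, n = 2). Usp17lb stood above Usp17lc, and Usp17lc above the next, in both libraries. Usp17la and Usp17le overlapped, and Usp17ld was below all others in both.

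Folds were taken on the scale of levels. Against the level that 3 reads per control library would give, Usp17la was at least 166.8-fold higher in the knockouts, Usp17lc at least 243.8-fold, Usp17le at least 101.9-fold and Usp17ld at least 14.69-fold. For Usp17lb, 2834 reads in the knockouts stood against 1 in the controls, a ratio of rates of 3051 with an exact 95% interval of 547.2 to 1.206e+05. It was 1539 without control replicate 2, and without control replicate 1 no control read remained.

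The test was limma on log2(TPM + 1), fitted to all 16 oocyte libraries with p-values adjusted over the 20470 genes tested. Usp17lb rose by 6.97 ± 0.349 (log2, SE) with an adjusted p of 9.02e-07, and its rise was rank 14 from the top among all genes tested. Usp17lc rose by 5.31 ± 0.500 (adjusted p = 3.18e-05) and Usp17la by 4.69 ± 0.277 (adjusted p = 1.97e-06). Usp17le rose by 4.35 ± 0.614 (adjusted p = 0.00055). The smallest rise was that of Usp17ld, at 1.86 ± 0.342 (adjusted p = 0.00329), which missed the threshold when only the 4 GO libraries were fitted (adjusted p = 0.0899). In that limma fit the others passed by far less. Their adjusted p-values there were 0.0094 for Usp17lb, 0.0139 for Usp17lc, 0.0166 for Usp17la and 0.0224 for Usp17le.

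In the same comparison 9.12% of all genes tested rose, 4.69% fell and 13.8% changed either way, and the median over all genes tested was 0.06. All 5 members are among those that rose, but this count is no support of its own. Usp17la, Usp17lb and Usp17ld entered the test only because both GO knockout libraries reached 1 TPM, so they had to differ. Usp17lc reached 1 TPM in 1 further oocyte library, so it too needed a GO knockout library to be tested. Usp17le reached it in 2 further ones and would have been tested without them.

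**Figure D2:**
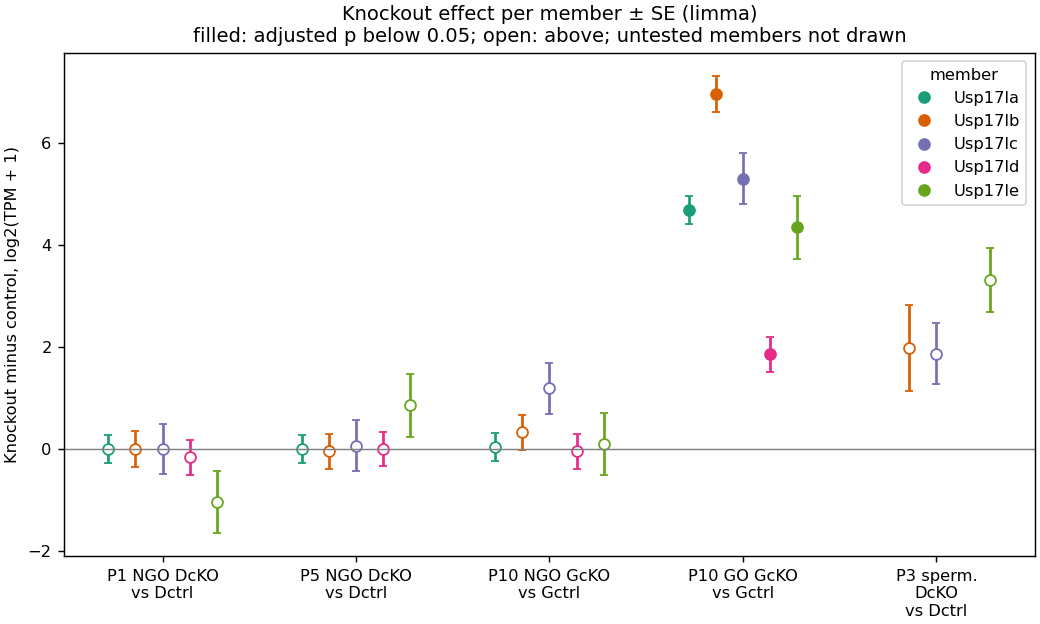
Knockout minus control difference in log2(TPM + 1) on the y axis for each member in each of the 5 comparisons on the x axis, with bars of ± 1 SE from limma, filled where the adjusted p is below 0.05. All filled points are in P10 GO, from 1.86 for Usp17ld to 6.97 for Usp17lb. Usp17la and Usp17ld are not drawn in the spermatogonia, where they were not tested.

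Markers of other cell types were low in the growing oocytes but not equal between the groups. The summed level of 10 markers of gonadal supporting cells was 0.6035 to 3.017 TPM in the controls and 10.41 to 12.06 TPM in the knockouts, with 5 to 6 of the 10 at 0 in the controls and 2 to 4 at 0 in the knockouts. The 8 stromal markers summed to 1.702 to 1.772 TPM in controls and 3.706 to 6.096 TPM in knockouts, with 4 to 6 of them at 0 in controls, 2 to 3 at 0 in knockouts and Col3a1 at 0 in all 4 libraries. Foxl2, a granulosa cell factor, was at 0.04091 and 4.688 TPM in the knockouts, and Amhr2 and Cldn11 were at 0 in both. The 8 blood and immune markers summed to 0.6155 to 3.145 TPM in controls and 0.8503 to 1.927 TPM in knockouts, and Ptprc, the CD45 gene, was at 0 in all 4 libraries. The 5 endothelial markers summed to 102.3 TPM in knockout replicate 1, of which Pecam1 made 98.59 TPM while Cdh5, Kdr and Emcn were at 0, and to 2.778 TPM in replicate 2. The part of these cells in the Usp17l levels was not tested, and the summed Usp17l level was 216.5 TPM in replicate 1 and 221.4 TPM in replicate 2.

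The knockout and control libraries of non-growing oocytes from the same age were closer. Usp17lc was the member with the most reads, at 3.76 and 0.404 TPM in the GcKO libraries (87 and 8 reads) and 0.211 and 0.0583 TPM in the controls (4 and 1 reads). Both knockout libraries were above both controls, but almost all of the difference came from replicate 1. The ratio of read rates was 15.97 (exact 95% interval 6.608 to 50.3) and ran from 2.915 without GcKO replicate 1 to 37.96 without control replicate 1, while the limma difference was 1.19 ± 0.500 with an adjusted p of 0.272. Without GcKO replicate 2 the adjusted p was 0.034 and without GcKO replicate 1 it was 0.951, so the call rested on which library was kept.

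The remaining members were near or at the limit of detection in P10 NGO. Usp17lb had 5 and 9 reads in the knockouts and 0 and 5 in the controls, or 0.340 and 0.714 TPM against 0 and 0.458 TPM, so the groups overlapped. Usp17le had 3 and 2 reads against 0 and 2. Usp17la had 1 read in the 4 libraries, in a knockout, and Usp17ld had 1 read, in a control. None of the 5 passed the test in P10 NGO, where 1.92% of all genes did and 1.02% rose.

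Whether the knockout changed the family more in growing than in non-growing oocytes was taken as the difference of the 2 effects in the same limma fit. Because Usp17la, Usp17lb and Usp17ld were tested only through the GO knockout libraries, and Usp17lc partly so, a larger effect in GO was built in for them and their values are descriptions. The difference was 6.65 ± 0.494 for Usp17lb (adjusted p = 6.76e-05), 4.66 ± 0.392 for Usp17la (adjusted p = 0.000114), 4.26 ± 0.868 for Usp17le (adjusted p = 0.0129), 4.12 ± 0.707 for Usp17lc (adjusted p = 0.00501) and 1.91 ± 0.484 for Usp17ld (adjusted p = 0.0353), all on the log2 scale. Over all genes tested, 4.84% had a larger effect in GO and 7.46% differed either way. The difference of Usp17lc missed the threshold when only the 4 P10 groups were fitted (adjusted p = 0.0847), that of Usp17le under 2 of 15 alternatives (up to 0.0759) and that of Usp17ld under 7 of 14 (up to 0.161). In controls alone no member passed between GO and NGO, with adjusted p-values from 0.85 to 1, while 24.3% of all genes tested did.

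At P1 the members were almost silent. Usp17la, Usp17lb and Usp17lc were at 0 in all 4 libraries. Usp17le was at 0 and 3.72 TPM in the controls and 0.112 and 0 TPM in the knockouts, and Usp17ld was at 0.252 TPM in the same control library as the 59 reads of Usp17le and at 0 in the other 3. The limma difference of Usp17le was −1.04 ± 0.614 (adjusted p = 0.67), and it turned to 0.08 without control replicate 2, the library that held those reads. No member passed at P1, where 1.7% of all genes tested did.

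At P5 Usp17le was the member with the most reads in the knockouts. It was at 1.81 and 0.623 TPM in the knockouts (35 and 11 reads) and at 0 and 0.391 TPM in the controls (0 and 7 reads), so both knockout libraries lay above both controls. The difference of 0.86 ± 0.614 did not pass (adjusted p = 0.678), and it was 0.46 without knockout replicate 1 and 0.31 after quantile normalization. Usp17lc was at 0.293 and 0 TPM in knockouts and 0.180 and 0 TPM in controls, Usp17lb had 1 read in a control, and Usp17la and Usp17ld were at 0 throughout. None passed at P5, where 1.36% of all genes tested did. The effect on Usp17le at P5 minus that at P1 was 1.899 ± 0.868 with an adjusted p of 0.678. Without P1 control replicate 2 it was 0.78 (adjusted p = 1), and without P1 control replicate 1 it was 3.02 (adjusted p = 0.137). No member passed in that comparison, where 0.313% of genes did. Between P1 and P5 controls no member passed either, with adjusted p-values from 0.561 to 1 and a share of 4.7% over all genes.

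In undifferentiated spermatogonia at P3 the order of the members was another one. Usp17le was at 18.1 and 16.9 TPM in the knockouts (195 and 198 reads) and at 0.168 and 1.92 TPM in the controls (2 and 33 reads). Usp17lb was at 11.8 and 5.96 TPM in the knockouts (100 and 55 reads) and at 3.96 and 0.148 TPM in the controls (37 and 2 reads). Usp17lc was at 4.06 and 1.65 TPM in the knockouts (54 and 24 reads) and at 0 in both controls. For these 3 genes the groups did not overlap, although the controls of Usp17lb and Usp17le were themselves uneven. How many of all genes separated in this way was not counted, so the separation is a description. Usp17la was at 1.73 and 0.0637 TPM in the knockouts (25 and 1 reads) and at 0 and 0.0436 TPM in the controls (0 and 1 reads), so it rested on 1 library. Usp17ld was at 0 in all 4.

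As group means, the spermatogonial knockouts held 17.47 ± 0.8657 TPM of Usp17le, 8.881 ± 4.131 of Usp17lb, 2.855 ± 1.698 of Usp17lc and 0.8989 ± 1.181 of Usp17la (SD, n = 2). Usp17le was above Usp17lb and Usp17lb above Usp17lc in both libraries, while Usp17lc and Usp17la overlapped.

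By read counts, Usp17le was 14.48 times as frequent in the knockout spermatogonia as in the controls (exact 95% interval 10.24 to 21.09, counting error only) and Usp17lb 5.126 times (3.588 to 7.482). Both ratios depended on single controls: without control replicate 1 that of Usp17le was 9.075 and that of Usp17lb 59.06, and without control replicate 2 they were 103.7 and 2.211. Usp17lc was at least 16.51-fold higher. By limma over the 4 libraries, the difference was 3.32 ± 0.631 for Usp17le (adjusted p = 0.144), 1.87 ± 0.599 for Usp17lc (adjusted p = 0.238) and 1.98 ± 0.845 for Usp17lb (adjusted p = 0.329). Without control replicate 2 the difference of Usp17lb was 0.93 (adjusted p = 0.708), and without control replicate 1 it was 3.04 (adjusted p = 0.495). Usp17la and Usp17ld did not reach the level for testing. No member passed, and neither did any of the 18671 genes tested (0%), although 3004 had an unadjusted p below 0.05. The rise of Usp17le was rank 66 from the top among all genes tested. Its adjusted p was 0.0902 to 0.52 over the alternative settings.

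Some markers of other cells also differed between the P3 groups. The 8 blood and immune markers summed to 78.59 to 99.87 TPM in controls and 291.4 to 337.5 TPM in knockouts, nearly all of it Fcer1g, with 3 to 5 of the 8 at 0 in controls and 2 to 3 in knockouts. Cd52, a leukocyte marker, was at 4.646 and 3.9 TPM in controls and 14.43 and 9.405 TPM in knockouts, and Ptprc was at 0.4471 and 0.01264 TPM in controls and at 0 in both knockouts. The 8 stromal markers summed to 9.589 to 14.16 TPM in controls and 39.11 to 47.53 TPM in knockouts, and the 5 endothelial markers to 22.77 to 26.09 and 43.88 to 49.96 TPM. The sums of the 10 markers of gonadal supporting cells overlapped, at 64.23 to 126.2 TPM in controls and 110.9 to 118.8 TPM in knockouts. The 9 markers of undifferentiated spermatogonia summed to 2833 to 3660 TPM in controls and 2487 to 2877 TPM in knockouts, but did not move alike. Nanos2 was at 8.232 and 14.51 TPM in controls and 0.4715 and 0 TPM in knockouts. Zbtb16 was at 82.3 and 109.6 TPM in controls and 54.47 and 44.15 TPM in knockouts. Gfra1 and Ret were also lower in both knockouts, while Id4, Etv5, Lin28a, Sall4 and Uchl1 overlapped. The part of these markers' cells in the Usp17l levels was not tested.

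The members' shares of the family's reads set the cell types side by side without regard to depth. In the GO knockouts Usp17lb took the largest share, at 42.79% of 3141 reads in replicate 1 (exact 95% interval 41.05 to 44.54) and 55.99% of 2661 reads in replicate 2 (54.08 to 57.89). Usp17lc followed with 28.43% and 18.34%, Usp17la with 13.85% and 18.26%, Usp17le with 12.8% and 6.727%, and Usp17ld with 2.133% and 0.6764%. Read shares are not corrected for gene length. As shares of the family's TPM, Usp17lb took 52.99% and 66.49%, Usp17la 10.08% and 12.75% and Usp17le 12.45% and 6.275%, so in replicate 1 Usp17le stood above Usp17la on that scale. The 2 libraries therefore differed by more than counting error, although the summed levels were nearly the same.

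In the spermatogonial knockouts Usp17le took 52.14% of 374 reads in replicate 1 (46.94 to 57.3) and 71.22% of 278 reads in replicate 2 (65.51 to 76.47). Usp17lb took 26.74% and 19.78%, Usp17lc 14.44% and 8.633%, and Usp17la 6.684% and 0.3597%. Usp17ld had 0 reads, which allowed a share of up to 0.9815% and 1.318% by the exact interval. In the control spermatogonia 37 of 39 reads were Usp17lb in replicate 1 and 33 of 36 were Usp17le in replicate 2, so the few control reads came from different members. In NGO GcKO replicate 1, 91.58% of 95 reads were Usp17lc (84.08 to 96.29). The differences in make-up between cell types were not tested, since the oocyte and spermatogonia values came from separate tables.

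**Figure D3:**
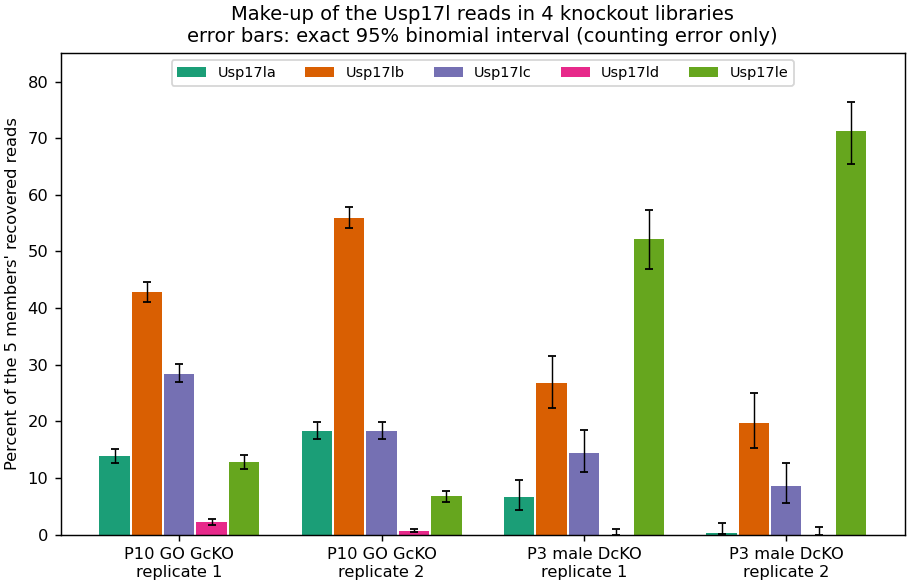
Percent of the recovered reads of the 5 members (y axis) that belonged to each member, in the 2 P10 GO GcKO and the 2 P3 male DcKO libraries (x axis), with exact 95% binomial intervals as error bars. Usp17lb is the tallest bar in both growing oocyte libraries, at 42.79% and 55.99%, and Usp17le in both spermatogonia libraries, at 52.14% and 71.22%.

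Other genes of the ubiquitin system gave a reference for growing oocytes. Of 53 other genes of the USP class of deubiquitinases, 49 were tested, 2 rose and 4 fell, with a median difference of −0.01. That is 12.2% changed, near the 13.8% of all genes tested, so the counts say nothing particular of the list and the genes named are examples. Usp46, a deubiquitinase known for its part in the nervous system, fell from 67.25 and 57.63 TPM in the controls to 6.218 and 1.141 TPM in the knockouts, a change of −4.01 (adjusted p = 0.000583). Usp36, a nucleolar enzyme, rose by 2.20 (adjusted p = 0.00855) from 0.08559 and 0.03484 TPM to 6.428 and 2.186 TPM. Usp1, which acts in DNA repair, fell by 1.27 (adjusted p = 0.012), and Usp43 rose by 1.50 (adjusted p = 0.0347), a call that was lost under 8 of 10 alternatives. The call of Usp46 held under all 11 alternatives, and those of Usp36 and Usp1 were each lost under 2.

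Of 38 deubiquitinases of other classes 36 were tested, 4 rose and 2 fell, with a median of 0.20. The share that changed, 16.7%, was again near that of all genes. Psmd14, the deubiquitinase of the proteasome lid, rose from 281.2 and 242.6 TPM to 461.2 and 498.0 TPM (0.87, adjusted p = 0.00128). Yod1 rose by 2.87 (adjusted p = 0.0015) and Stambpl1 by 2.96 (adjusted p = 0.00623), while Otud4 fell by 2.06 (adjusted p = 0.00784). Psmd14 passed under all 11 alternatives, Yod1 and Stambpl1 missed the threshold under 1 each and Otud4 under 3. In P1, P5 and P10 non-growing oocytes none of these USP and other deubiquitinase genes passed the test.

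Reported protein targets of USP17 were also followed as transcripts, which says nothing of the proteins. Of 9 such genes 7 were tested in oocytes, and none rose or fell in GO, where 13.8% of all genes tested changed. With 7 genes that count says nothing particular of the list. Rce1 was at 1.023 and 0 TPM in the knockouts and 3.223 and 1.479 TPM in the controls (−1.19, adjusted p = 0.118). Cdc25a was at 5.811 and 10.01 TPM against 9.302 and 9.215 TPM. In P10 NGO 1 of the 7 rose, beside 1.02% of all genes tested, and a single gene describes no trait of the list. It was Ddx58, which encodes the RNA sensor RIG-I. Ddx58 was at 10.87 and 6.376 TPM in the knockouts and 0.03676 and 0.1014 TPM in the controls (3.13, adjusted p = 0.0157).

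Genes known from the two-cell stage formed the last list. Of 34 such genes outside the family 21 were tested in oocytes, 17 rose in GO and none fell, with a median of 4.98. Those that rose were 81.0% of the genes tested in the list, beside 9.12% of all genes tested. As with Usp17l, many of these genes are low in all other oocyte libraries, which bears on which of them were tested. The share is therefore a description and no support of its own. The smallest adjusted p-values were those of Gm20767 (4.86, 1.97e-06), Pramef25 (4.35, 3.76e-06), Gm5662 (7.71, 3.76e-06) and Gm2016 (6.51, 4.43e-06) by limma. Gm5662 was at 0.2146 and 0 TPM in controls and 189.3 and 277.3 TPM in knockouts, above the level of Usp17lb. The genes that did not pass included Tcstv1 and Tcstv3, which were already at 201.1 to 298.1 TPM in the GO controls, and Arg2 and Sp110.

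In P10 NGO 4 of the same 21 genes rose, namely Gm8300, Gm2022, Gm4340 and Zscan4a. That is 19.0%, beside 1.02% of all genes tested. Zscan4a, a gene of the telomere-associated Zscan4 family, was at 16.01 and 2.554 TPM in the knockouts and 0.1706 and 0.1882 TPM in the controls (2.72, adjusted p = 0.0423), with replicate 1 the higher of the 2 as for Usp17lc. The call of Zscan4a was lost under 6 of 11 alternatives, those of the other 3 under 2 to 4, and that of Ddx58 under 2, always including the fit of the compared groups alone (adjusted p = 0.362 to 0.394). The knockout effect was larger in GO than in NGO for 15 of the 21 (71.4%), beside 4.84% of all genes tested. For list genes tested only through the GO knockout libraries a larger effect in GO was built in. This share is therefore a description and no support of its own. At P1 and P5 none passed. In spermatogonia 2 of the 34 reached the level for testing, Sp110 and Arg2, and neither passed.

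**Figure D4:**
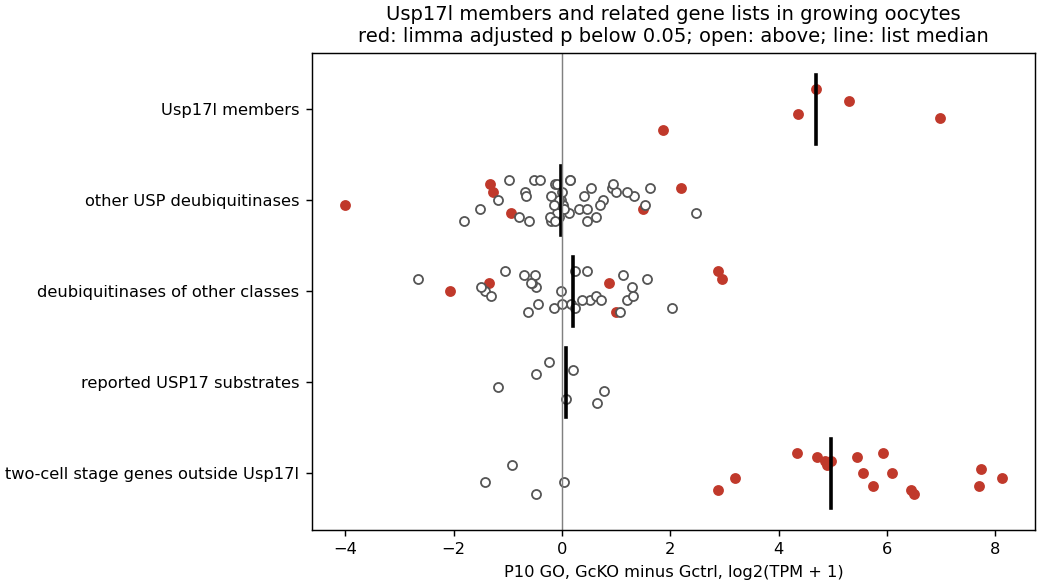
Difference between GcKO and Gctrl in P10 growing oocytes, in log2(TPM + 1) on the x axis, for each tested gene (points) of the Usp17l family and the 4 related lists (y axis), red where the limma adjusted p is below 0.05, with a line at each list's median. The Usp17l and the two-cell stage genes lie mostly to the right of 4, with medians of 4.69 and 4.98, and the other lists are centred near 0.

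The genes whose levels over the 16 oocyte libraries were most like those of a member were found by Pearson's r on log2(TPM + 1). These values are a description, since the 2 GO knockout libraries dominate each of them and the libraries share their processing. For Usp17lb the closest genes were Ubtfl1 and Gm28645, both with r = 0.997, and Ubtfl1 was also among the 5 closest to Usp17la. Ubtfl1 was at 18.09 and 21.26 TPM in the GO knockouts and at no more than 0.0957 TPM in any other oocyte library. For Usp17lc the closest was Zscan4-ps2 (r = 0.997), which was at 77.81 and 63.72 TPM and reached 4.703 TPM elsewhere. For Usp17ld it was Gm35696 (r = 0.993), and for Usp17le Gm33016, with a lower r of 0.952. Among the members, r ran from 0.855 for Usp17lc and Usp17le to 0.996 for Usp17la and Usp17lb.

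The region around the members was not uniformly changed in growing oocytes. Between the first and the last member lie 118 other annotated genes, of which 74 are olfactory receptor genes, the receptors of smell. Of the 118, 15 were tested, 2 rose and 1 fell, so 13.3% of those tested rose, beside 9.12% of all genes. The median difference of the 15 was 0.63, beside 0.06 over all genes tested. That median is the value of Gm26506, a short predicted miRNA gene. Gm26506 was at 0 in both controls and knockout replicate 1 and at 1.4017 TPM in knockout replicate 2 (limma adjusted p = 0.6066). The median is thus no measure of a shift of the region. Trim12a, of a cluster of antiviral Trim genes, rose by 1.98 (adjusted p = 0.007725), and Trim30a, of the same cluster, fell by 1.50 (adjusted p = 0.03035), a call lost under 4 of 11 alternatives. The other gene that rose was Gm25774, a predicted miRNA gene inside the span of Usp17lc on the same strand, whose reads may be those of its host (2.61, adjusted p = 0.01581, lost under 3 of 10 alternatives). Of the olfactory receptor genes, 63 were at 0 in both GO knockout libraries and 3 were tested.

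The tested genes on the flanks did not pass the test. Olfr574 was at 0 in both controls and at 3.0713 and 0.44435 TPM in the knockouts (1.28, adjusted p = 0.1043), and it passed under 4 of 9 alternatives. Gm45272, a noncoding RNA gene beyond Usp17la, was at 218.39 and 235.95 TPM in controls and 115.44 and 153.24 TPM in knockouts (−0.77, adjusted p = 0.5134). The pseudogene AC161520.1 and Olfr666 stayed below 0.15 TPM in these 4 libraries.

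**Figure D5:**
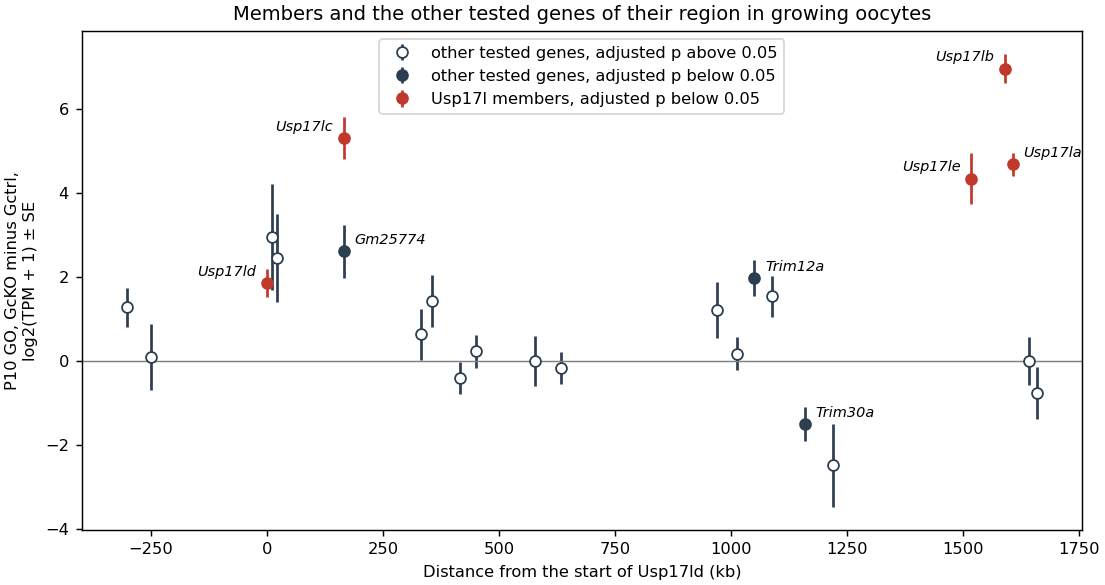
Difference between GcKO and Gctrl in P10 growing oocytes in log2(TPM + 1) ± SE (y axis) for the Usp17l members (red) and the other tested genes between them and on both flanks (dark), against distance from the start of Usp17ld in kb (x axis). The members stand at both ends of the region, from 1.86 to 6.97. The tested genes between them lie on both sides of 0, with a median of 0.63. That median is the value of Gm26506, which was above 0 TPM only in knockout replicate 2.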

How the data were processed

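The authors deposited TPM for 16 oocyte and 4 spermatogonia libraries in 2 tables, per the file headers. Per the labels' protocols, libraries were made from total RNA with a low-input NEBNext kit and sequenced as 150-base read pairs. Per the submitters' processing notes, Trimmomatic 0.39, STAR 2.5.4b, SAMtools 1.9 and featureCounts 2.0.1 were used with GRCm38. The annotation, strandedness, handling of reads that match several genes and the TPM step are not given in the sources used here.

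Values were tested as log2(TPM + 1) with limma 3.58.1 in R 4.3.3 (eBayes with a trend, two-sided, Benjamini-Hochberg over all genes tested, threshold 0.05) among genes with at least 1 TPM in 2 libraries. This scale understates changes of low genes. The oocyte fit had 8 residual degrees of freedom and the spermatogonia, fitted alone, had 2. Read numbers were recovered from TPM and GENCODE M21 exon lengths, and among values below 20 reads 98.65% to 99.19% were whole to within 0.05. Whether a unit is a read or a read pair is not given. The fits were tested on simulated data, with changes added only to genes of higher mean level and an equal spread in all groups. That does not cover genes near 0 in most libraries, such as the members.

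Named genes were the members, Chd4, up to 4 list genes with the smallest adjusted p per comparison, the 5 genes most like each member, and tested neighbours. Values of Rce1, Cdc25a, Tcstv1, Tcstv3, Arg2, Sp110, the genes inside the region and single markers were chosen after they were seen. The members and lists were chosen with earlier results of these data known. Alternatives were another pseudocount (0.1), a filter of 5 TPM or none, quantile normalization, a replicate block, only the groups compared, and each library left out. A voom fit of recovered reads, and ratios of read rates with each library left out, were added after seeing the data. Figures and tables used Python 3.11.15, pandas 2.3.3, scipy 1.17.1 and matplotlib 3.10.9.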

Additional observations from a re-analysis of the deposited data

Results flagged for a closer look

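The knockout effect was larger in growing than in non-growing oocytes at P10 by limma's test of the difference of the 2 effects on log2(TPM + 1). For Usp17la, Usp17lb and Usp17ld this direction was built in, since they were tested only because both GO knockout libraries reached 1 TPM, and the values are descriptions. Usp17lc reached it in 1 other oocyte library, too few without them, and Usp17le in 2 others. The calls of Usp17lc and Usp17le were lost under 1 and 2 of 15 alternatives. GO minus NGO was 4.66 for Usp17la (adjusted p = 0.000114), 6.65 for Usp17lb (6.76e-05), 4.12 for Usp17lc (0.00501), 1.91 for Usp17ld (0.0353) and 4.26 for Usp17le (0.0129). Each member was higher in both GO knockout libraries than in the 14 other oocyte libraries.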

How the results depend on the processing

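In growing oocytes all members tested passed under every alternative except Usp17ld when only the groups compared were fitted. The members past the test in the difference between GO and NGO were 3 in that fit and 4 to 5 with a library left out. In P10 NGO 0 to 1 member passed with a library left out, the 1 being Usp17lc. With a library left out Usp17le ran from −2.16 to 0.07687 (log2) at P1 and from −2.001 to 0.24 between P5 and P1 controls, the positive values being those without P1 Dctrl replicate 2.

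Counts of all genes past the test moved more. With the 5 TPM filter they were 190 at P1 (348 as reported), 56 at P5 (278), 56 in spermatogonia (0) and 16 for the P5 minus P1 effect (64). Without a filter they were 449 at P5, 211 in P10 NGO (393) and 318 for the P5 minus P1 effect. With only the groups compared they were 0 at P5 (3437 at an unadjusted p below 0.05 by limma), 0 in P10 NGO (1286 unadjusted), 1527 in GO (2827), 2358 for P5 against P1 controls (962), 10 for the P5 minus P1 effect and 385 for the GO minus NGO effect (1527). A pseudocount of 0.1 gave 626 in P10 NGO and 139 for the P5 minus P1 effect. Quantile normalization gave 939 in P10 NGO and 1 in spermatogonia, and voom 754, 1 and, for the P5 minus P1 effect, 166. With a library left out the counts were 122 to 276 at P1, 86 to 460 at P5, 293 to 1273 in P10 NGO, 301 to 537 for P5 against P1 controls and 44 to 153 for the P5 minus P1 effect. The cause was not tested.

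Replicate numbers did not pair the libraries (r of deviations −0.0492 to 0.0447). With the replicate number as a block the P5 minus P1 effect had 37 genes, and no member's call changed. With 2 libraries a group and members near 0 in most of them, depth limits what can be shown at the levels of most libraries.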
